A study of Mus musculus with 4 samples.

Results

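The muscle ubiquitin ligases and their adaptors are a group of 8 genes, Asb2, Klhl31, Klhl40, Klhl41, Trim54, Trim55, Trim63 and Fbxo32, taken by name from the 20701 gene symbols of the transcript table, with 1 transcript kept for each gene. They were measured by RNA-Seq in cardiac progenitor cells (CPCs) sorted for Nkx2-5-GFP on day 5 of directed cardiac differentiation. The comparison was between 2 libraries of Baf60c knockdown (KD) cells and 2 libraries of control cells. All cells were grown from E14 Tg(Nkx2-5-EmGFP) mouse embryonic stem cells (ESCs), which carry a green fluorescent reporter of the cardiac factor Nkx2-5. The KD line carried a stable shRNA against Baf60c, a subunit of the BAF chromatin remodelling complex encoded by Smarcd3, and control cells were made with the pLKO vector. The cells came from ESC pools rather than from single clones. The sources used here do not tie a library to a pool or to 1 of the shRNAs described, so the spread between the 2 libraries of a group, on which every p-value rests, may be technical. Levels are RPKM, reads scaled by transcript length and by library depth.

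Ubiquitin ligases attach ubiquitin to chosen proteins, which are then usually degraded by the proteasome. In striated muscle the sarcomere is renewed in this way while it keeps contracting. TRIM proteins of the MuRF family carry their own RING domain, whereas the other genes encode adaptors that bring a substrate to a cullin scaffold. The scaffold is CUL5 for Asb2, CUL3 for the kelch proteins Klhl31, Klhl40 and Klhl41, and CUL1 for the F-box protein Fbxo32, also called atrogin-1. Trim63 and Fbxo32 are best known as the ligase genes that rise when skeletal muscle wastes, and loss of Asb2 in the mouse stops heart development in the embryo.

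Of the 8 genes, 6 were detected well enough to be tested, and all 6 were lower in Baf60c KD CPCs than in control CPCs. Asb2 was 68.6% lower, Trim54 59.0%, Klhl31 51.4%, Fbxo32 50.4%, Trim63 42.5% and Trim55 36.2%. Klhl40 and Klhl41 gave between 0 and 7 reads a library and were not tested. For comparison, 18.2% of the 11370 genes tested were called lower and 36.1% were called higher (54.3% in all), at a Benjamini-Hochberg adjusted p under 0.05 in limma on log2(RPKM + 1). That split was 4103 higher and 2072 lower genes, and scaling each library by its median ratio to the others made it 2926 and 2892. No gene of the group was called higher, none at an unadjusted p under 0.05 and none with limma voom. The median log2 fold change of the 6 genes was -0.69, against 0.07 over all genes tested. The 1 added to each RPKM makes these log2 values smaller in size than the percent differences imply, most of all for Trim54 and Klhl31. In bulk RNA, fewer cells of a type and less RNA per cell cannot be told apart.

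The promoters of Asb2, Trim54, Trim63 and Klhl41 are shown first, because each holds a CArG box, an MCAT motif or a MEF2 box, the rarer muscle motifs of those sought. RefSeq promoter sequences of mouse build GRCm38.p6 covered 7 start sites of 6 of the genes, 2 of them for Asb2, and not Trim55 or Fbxo32. In the 250 bases before the start, a CArG box, the binding motif of serum response factor, stood 64 bases before the first Asb2 start, at chr12:103356002-103356251 on the minus strand. The MCAT motif CATTCC, bound by TEAD factors, was found 163 and 75 bases before the Trim54 start, at chr5:31116362-31116611 on the plus strand, and 80 bases before the Trim63 start, at chr4:134314870-134315119 on the plus strand. Each sequence runs 5′ to 3′ towards the start, with the CArG box or the MCAT motif, read on either strand, in capitals.
Asb2: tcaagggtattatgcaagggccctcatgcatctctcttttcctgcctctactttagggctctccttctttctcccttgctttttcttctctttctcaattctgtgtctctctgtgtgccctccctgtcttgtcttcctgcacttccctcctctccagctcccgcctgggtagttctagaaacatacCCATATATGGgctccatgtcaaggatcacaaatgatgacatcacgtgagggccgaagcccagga
Trim54: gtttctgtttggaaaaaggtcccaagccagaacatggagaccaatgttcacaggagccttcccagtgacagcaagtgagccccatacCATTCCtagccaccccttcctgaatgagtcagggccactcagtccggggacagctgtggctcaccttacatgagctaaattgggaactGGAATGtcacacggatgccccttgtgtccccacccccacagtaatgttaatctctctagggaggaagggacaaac
Trim63: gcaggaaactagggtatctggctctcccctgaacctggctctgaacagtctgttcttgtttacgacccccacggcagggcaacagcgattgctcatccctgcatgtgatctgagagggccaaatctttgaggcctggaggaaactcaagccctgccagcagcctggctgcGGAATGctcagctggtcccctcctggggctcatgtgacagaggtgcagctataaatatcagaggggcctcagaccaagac

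A MEF2 box stood 63 bases before the start of Klhl41, 1 of the genes that were barely detected. It is in capitals in a 50-base stretch at chr2:69670037-69670086 on the plus strand.
Klhl41: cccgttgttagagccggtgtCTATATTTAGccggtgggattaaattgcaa

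These matches are descriptions of letters and not of binding. A CArG box was present in 1.47% of all 32851 promoters of the same length, a MEF2 box in 2.92% and CATTCC in 12.6%. The forkhead motif GTAAACA, bound by FoxO factors among others, was found 194 bases before the Trim63 start and in 3.17% of all promoters. Commoner motifs were the E-box CANNTG, in 5 of the 7 windows and 66.2% of all promoters, and the Nkx2-5 motif AAGTG, in 4 of 7 and 40.7%. In Trim54 the Nkx2-5 motif overlapped an E-box. Klhl31 held AAGTG 11 bases before its start and Klhl40 an E-box 10 bases before its start, whereas none of the motifs was found before the second Asb2 start. The GATA motif GATAA was in 0 of 7 windows and in 22.6% of all promoters. All motifs were sought on both strands.

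Smarcd3, the target of the shRNA, had 46.4 and 46.3 RPKM in the KD libraries, against 173.9 and 166.8 RPKM in control libraries. Its log2 fold change was -1.85 (SE 0.030, limma adjusted p = 2.89e-10), in the direction of the labels. Library depth was between 22064092 and 30398452 reads, of which 12623031 to 17649363 lay in the transcripts kept. No library stood apart in the number of genes with a read, 14828 to 15159.

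Asb2, the adaptor that brings filamins to CUL5, lies at chr12:104559352-104594211 on the minus strand of mm9. It had 7.99 and 7.79 RPKM in the KD libraries, from 486 and 634 reads, against 25.7 and 24.6 RPKM in control libraries, from 1597 and 1453 reads. Both KD values were far below both control values, and the libraries of a group lay close together. The mean was 7.89 ± 0.143 RPKM in KD cells and 25.1 ± 0.762 RPKM in control cells (SD, n = 2 each), so that KD cells had 3.19-fold less. On the log2 scale the difference was -1.56 (SE 0.044, limma adjusted p = 7.18e-09), and 34 of the 11370 genes tested had a lower one. The gene has more than 1 annotated start, and the use of each cannot be told from the 1 transcript measured. By distance of centred log2(RPKM + 1) values over the 4 libraries, the tested genes most like Asb2 were Ppp1r14c, an inhibitor of protein phosphatase, Actn2, the α-actinin of the Z-disc, and Jun, an AP-1 factor, at distances of 0.0514, 0.0665 and 0.0799. Actn2 had 34.7 and 34.8 RPKM in the KD libraries, against 102.1 and 97.5 RPKM in control libraries.

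Trim55 encodes MuRF2, which binds titin and microtubules while sarcomeres assemble. Its gene is at chr3:19544460-19591599 on the plus strand of mm9. Trim55 was the most abundant gene of the group, with 17.9 and 19.2 RPKM in the KD libraries, against 28.7 and 29.5 RPKM in control libraries. The 2 groups did not overlap, but the difference was the smallest of the 6 genes in percent. Its log2 fold change was -0.62 (SE 0.043, limma adjusted p = 2.45e-06).

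Trim63 encodes MuRF1, which tags sarcomere proteins such as troponin I, and is at chr4:133871035-133885544 on the plus strand. It had 4.25 and 3.61 RPKM in the KD libraries, against 7.12 and 6.55 RPKM in control libraries. The lower control value was above the higher KD value by more than the spread within either group. The log2 fold change was -0.67 (SE 0.073, limma adjusted p = 5.58e-05).

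Trim54 encodes MuRF3, which stabilises microtubules in muscle cells, and is at chr5:31419085-31440003 on the plus strand. It had 0.868 and 0.714 RPKM in the KD libraries, from 30 and 33 reads, against 1.98 and 1.88 RPKM in control libraries, from 70 and 63 reads. Here too both KD libraries were below both control libraries. The log2 fold change was -0.71 (SE 0.078, limma adjusted p = 5.59e-05), a value held down at this low level by the pseudocount of 1, and it was -1.19 with a pseudocount of 0.1 and -1.30 with limma voom on reads recovered from the RPKM. Reads were counted on both strands, and Trim54 shares 382 exon bases of the mm9 annotation with an antisense gene, Gm15469, whose reads cannot be told apart from its own there.

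Trim55 held most of the MuRF RNA in every library. It made up 77.8% and 81.6% of the summed RPKM of the 3 genes in the KD libraries, against 75.9% and 77.8% in control libraries. Trim63 took 18.4% and 15.4% in the KD libraries, against 18.8% and 17.3% in control libraries, and Trim54 took 3.77% and 3.03%, against 5.24% and 4.95%. The Trim54 share was lower in both KD libraries than in either control library, whereas the Trim63 shares overlapped.

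Fbxo32, whose protein targets calcineurin and the translation factor eIF3f, is at chr15:58011634-58046433 on the minus strand. It had 4.68 and 4.47 RPKM in the KD libraries, against 9.19 and 9.25 RPKM in control libraries. The level in KD cells was 2.02-fold lower, and the 2 control libraries were almost equal. The log2 fold change was -0.87 (SE 0.052, limma adjusted p = 9.15e-07). Fbxo32 shares 186 exon bases with the antisense gene Gm15943, whose reads there cannot be told apart either.

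Klhl31, a kelch protein that keeps filamin C in check in mouse skeletal muscle, is at chr9:77484539-77507925 on the plus strand. It was the least abundant gene tested, with 0.493 and 0.579 RPKM in the KD libraries, from 70 and 110 reads, against 0.943 and 1.26 RPKM in control libraries, from 137 and 174 reads. The groups did not overlap, although the 2 control libraries differed from each other more than the KD libraries did. The log2 fold change was -0.45 (SE 0.093, limma adjusted p = 0.00275), and it was -0.91 with a pseudocount of 0.1 and -1.0 with limma voom.

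Klhl41 and Klhl40, which in skeletal muscle protect nebulin, and Klhl40 also the thin filament protein Lmod3, were near or below the limit of detection. Klhl41, at chr2:69508177-69522287 on the plus strand, had 2 and 7 reads in the KD libraries, against 2 and 3 reads in control libraries. The ratio of the summed read rates was 1.54 (exact 95% interval 0.462 to 5.83, counting error only), so a difference was not detectable at this depth. Klhl40, at chr9:121686725-121692937 on the plus strand, had 0 and 1 reads in the KD libraries, against 0 and 0 reads in control libraries. A count of 3 reads, the floor used for a count of 0, would be 0.0540 and 0.0403 RPKM in the KD libraries, against 0.0528 and 0.0556 RPKM in control libraries.

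**Figure D1:**
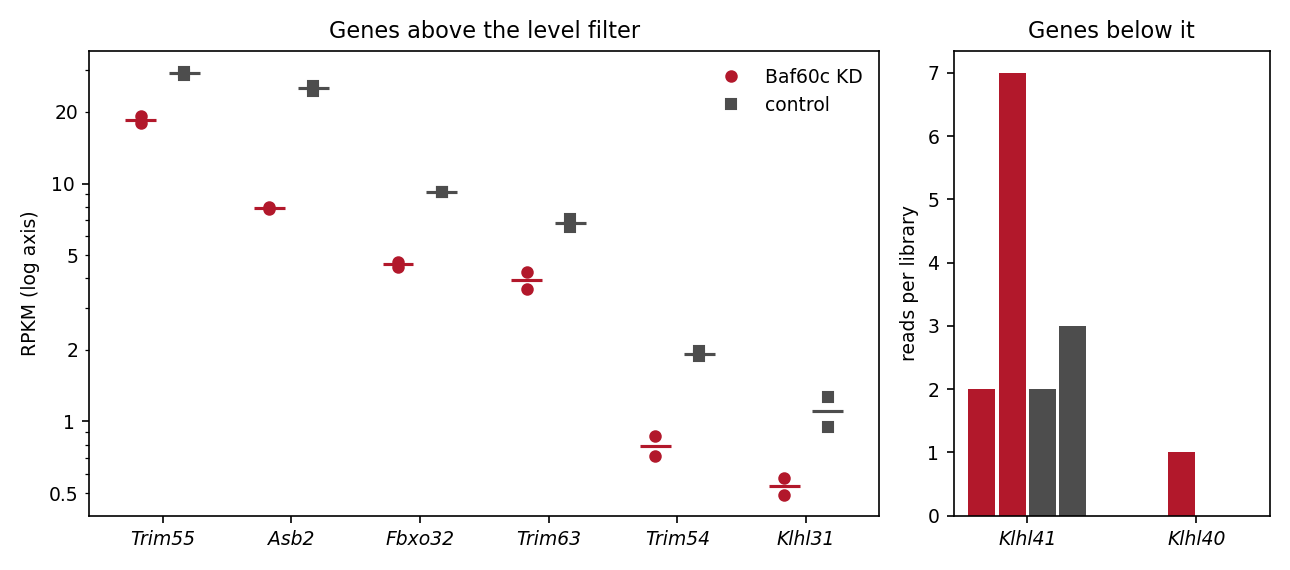
RPKM of the 6 tested genes in each library, Baf60c KD to the left of control, with points for libraries and bars for the means of 2, on a logarithmic axis; the right panel gives reads per library of the 2 barely detected genes as bars from 0. In all 6 tested genes both KD points lie below both control points, and Asb2 has the widest gap, a mean of 7.89 RPKM in KD against 25.1 RPKM in control.

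From high to low, the order of the 6 tested genes was the same in both groups: Trim55, Asb2, Fbxo32, Trim63, Trim54 and Klhl31. The ranges of neighbours among them did not overlap within either group. Klhl41 and Klhl40 lay below all 6 and could not be ranked against each other at this depth. All 6 genes tested also lacked overlap between the groups, as did 27.8% of all genes tested in the lower and 49.6% in the higher direction. The summed level of the 8 genes was 36.2 and 36.5 RPKM in the KD libraries, against 73.6 and 73.1 RPKM in control libraries. Asb2 accounted for 22.1% and 21.4% of this sum in the KD libraries, against 34.9% and 33.7% in control libraries, and Trim55 for 49.5% and 52.7%, against 39.0% and 40.3%.

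**Figure D2:**
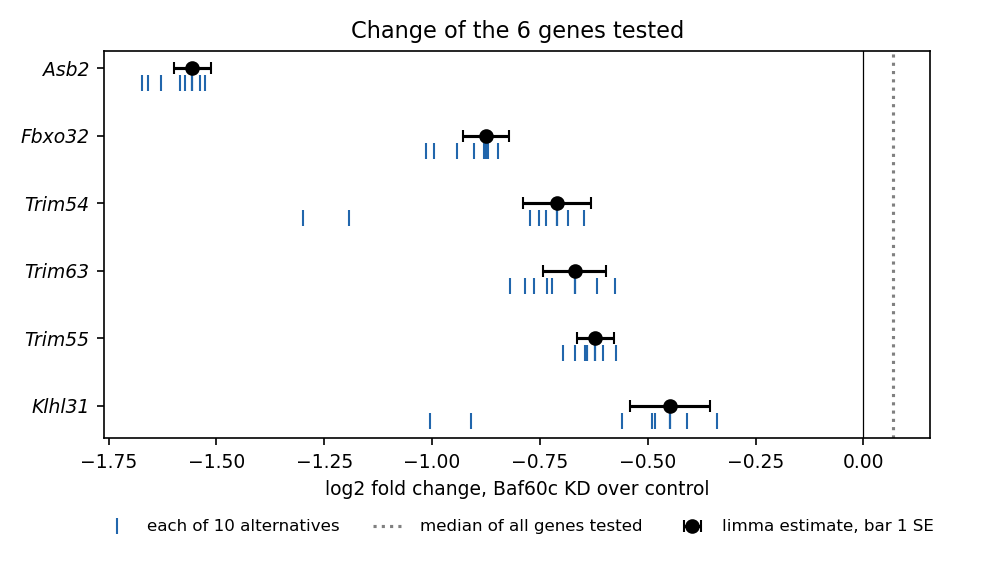
Log2 fold change of the 6 genes tested, Baf60c KD over control, from limma on log2(RPKM + 1), with bars of 1 SE, ticks for the value under each of 10 alternative settings and a dotted line at the median of all genes. With the pseudocount of 1, Asb2 is farthest from 0 at -1.56 and Klhl31 nearest at -0.45, while the median of all 11370 genes is 0.07. The value of Klhl31 is held down by that pseudocount at its low level. With a pseudocount of 0.1 it is -0.91, against -0.65 for Trim55.

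The cell type of the libraries was checked against marker genes. Of the 9 cardiomyocyte markers, which include Nkx2-5, Tnnt2, Myh6 and Actn2, 9 were called lower, with a median log2 fold change of -1.26, and their summed level was 2787 and 2841 RPKM in the KD libraries, against 6940 and 6750 RPKM in control libraries. All 6 ligase genes moved in the direction of the cardiomyocyte markers. Of the 9 skeletal muscle markers, 4 were at 0 in every library, among them Myod1 and Myf5, and 8 were under 0.5 RPKM in all. The remaining one, Acta1, which the embryonic heart also expresses, carried the sum of 20.8 and 19.8 RPKM in KD, against 74.9 and 71.5 RPKM in control. The 5 smooth muscle markers summed to 793 and 787 RPKM in the KD libraries, against 1122 and 1116 RPKM in control libraries, with 3 called lower and 1 higher.

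Markers of some other cell types were higher in the KD libraries. Epicardial markers summed to 19.7 and 18.2 RPKM in KD, against 3.69 and 4.55 RPKM in control, with 4 of 4 tested called higher. Blood markers summed to 20.9 and 21.9 RPKM in KD, against 5.98 and 6.37 RPKM in control (3 of 4 higher), and endothelial markers to 29.3 and 30.0 RPKM, against 14.2 and 12.6 RPKM (3 of 6 higher and 3 lower). Most of the endothelial difference lay in Tek, with 15.5 and 15.6 RPKM in KD, against 2.13 and 1.86 RPKM in control. The 3 endothelial markers called lower were Cdh5, Tie1 and Esam. Fibroblast markers summed to 65.5 and 66.8 RPKM in KD, against 54.5 and 55.6 RPKM in control, with 3 higher and 1 lower of 4. Macrophage and pluripotent markers summed to less than 2 RPKM in every library, and Ptprc and Adgre1 were at 0. The part of cell composition in the differences of the ligase genes was not tested.

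Set against the summed cardiomyocyte markers, the 6 genes lay on both sides of an equal ratio. Per 1000 RPKM of these markers, Asb2 stood at 2.87 and 2.74 RPKM in the KD libraries, against 3.70 and 3.64 RPKM in control libraries, a ratio of 0.764. Trim55 stood at 6.43 and 6.76 RPKM in KD, against 4.13 and 4.37 RPKM in control, a ratio of 1.55. The ratio was 1.40 for Trim63, 1.21 for Fbxo32, 1.18 for Klhl31 and 0.999 for Trim54. Asb2 thus differed by more than the marker sum, Trim54 by nearly the same factor, and Trim55, Trim63, Fbxo32 and Klhl31 by less, which is a description without a test. On this scale the 2 groups overlapped for Trim54 and Klhl31. Sums of RPKM are ruled by the most abundant markers, of which Myl7 reached 3012 RPKM. The KD over control ratio was 0.411 for the sum, but from 0.217 for Myh6 to 0.717 for Nkx2-5 among single markers. The ratios of the 6 genes lay within that range, from 0.314 for Asb2 to 0.638 for Trim55. Which of them differed by more or by less therefore depends on the marker taken.

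**Figure D3:**
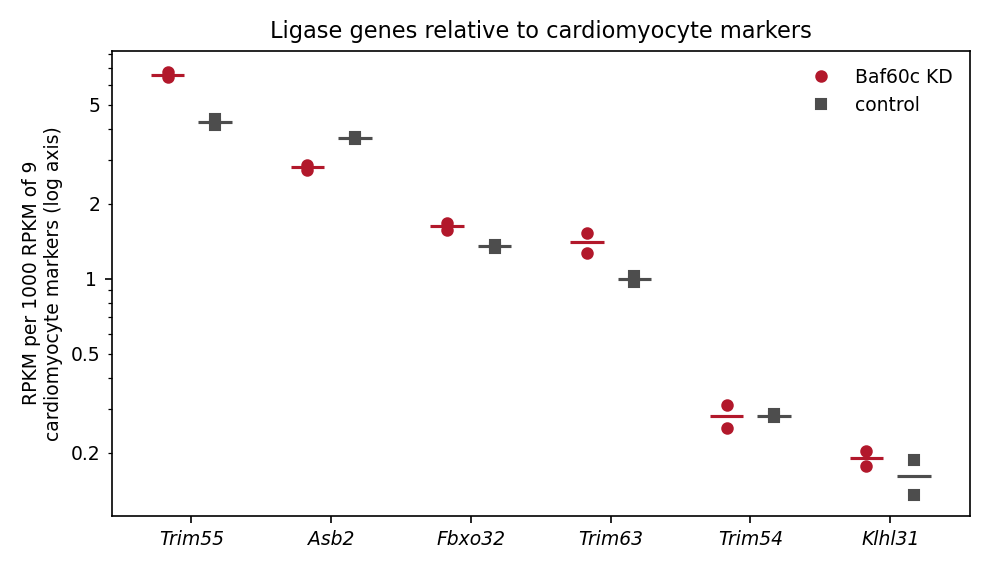
Level of each of the 6 genes per 1000 RPKM of summed cardiomyocyte markers in each library, Baf60c KD to the left of control, on logarithmic axes. Asb2 lies lower in KD (2.87 and 2.74, against 3.70 and 3.64 in control), while Trim55 lies higher (6.43 and 6.76, against 4.13 and 4.37).

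The wider families of these ligases held genes that rose as well as genes that fell, except the ASB family, where genes that passed the test rose. Of the other ASB genes, 9 of 17 were tested, with 0 called lower (1 with median-ratio scaling), none at an unadjusted p under 0.05 and none with limma voom, 3 called higher and a median log2 fold change of -0.03. Asb12 had 23.0 and 23.1 RPKM in the KD libraries, against 16.4 and 15.0 RPKM in control libraries, or 0.53 on the log2 scale (limma adjusted p = 1.33e-05), opposite in sign to Asb2. Asb10 was higher by 0.31 on the log2 scale (limma adjusted p = 0.0126), which was lost without control replicate 1 (adjusted p = 0.0517) or without KD replicate 1 (adjusted p = 0.0931).

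Among 41 other kelch genes tested, 9 were lower and 11 higher, a balance that median-ratio scaling turned to 13 lower and 8 higher, and the median log2 fold change was 0.01. Klhl23 had 12.6 and 13.1 RPKM in the KD libraries, against 25.1 and 25.6 RPKM in control libraries, or -0.93 on the log2 scale (limma adjusted p = 1e-07), and Klhl7 was also lower (-0.66). Klhl6, best known from B lymphocytes, had 16.1 and 14.4 RPKM in the KD libraries, against 2.60 and 2.38 RPKM in control libraries, or 2.22 on the log2 scale (limma adjusted p = 8.56e-09). Enc1, an actin-binding kelch protein, was higher by 0.54 on the log2 scale.

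Of 32 other TRIM genes tested, 5 fell and 12 rose (6 and 10 with median-ratio scaling), and the median was 0.07. Trim47 had 0.968 and 0.889 RPKM in the KD libraries, against 3.23 and 2.99 RPKM in control libraries, or -1.09 on the log2 scale (limma adjusted p = 1.93e-06), and Trim35 changed by -0.54. Trim12c and Trim7 were both higher by 0.40. Of 53 other F-box genes tested, 8 fell and 15 rose, which median-ratio scaling turned to 14 and 9, and the median was 0.05. Fbxl22, which acts at the Z-disc of heart muscle, had 3.23 and 3.17 RPKM in KD, against 7.56 and 8.04 RPKM in control, or -1.07 on the log2 scale (limma adjusted p = 4.55e-07), and Fbxw4 changed by -0.61. The cell cycle genes Skp2 and Fbxo5 were higher, by 0.66 and 0.56 on the log2 scale.

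Genes of the machinery that the adaptors share moved in both directions. Of 34 core genes of cullin ligases tested, 10 fell and 10 rose (11 and 4 with median-ratio scaling), and the median was 0.06. Cul5, the scaffold of Asb2, had 8.01 and 7.96 RPKM in the KD libraries, against 9.08 and 9.17 RPKM in control libraries, or -0.17 on the log2 scale (limma adjusted p = 0.0127). Cul3, the scaffold of the kelch adaptors, changed by -0.23 on the log2 scale (limma adjusted p = 0.000685) and Cul1, the scaffold of Fbxo32, by -0.11 (limma adjusted p = 0.0119). These 3 cullins were chosen after their values were seen. Nae1, of the NEDD8-activating enzyme, and Dcun1d2, of cullin neddylation, both changed by -0.27, with Dcun1d2 not called without control replicate 2 (limma adjusted p = 0.0505). Cul4b (0.66) and Cul7 (0.27) were higher.

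Of 37 proteasome subunits tested, 4 fell and 12 rose, which median-ratio scaling turned to 10 and 5, and the median was 0.06. The ATPase subunit Psmc4 had a log2 fold change of -0.15, not called without KD replicate 2 (limma adjusted p = 0.0522), and the lid subunit Psmd6 one of -0.14; with median-ratio scaling these were -0.23 and -0.21. The immunoproteasome subunit Psmb10 and the chaperone Psmd10 were both higher by 0.35.

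Ligases of other families studied in muscle, and the proteins that the 8 genes act on, held more genes called lower than called higher. Of 21 other muscle ligases tested, 10 fell and 1 rose (4 with limma voom), and the median was -0.10. Neurl2, a muscle adaptor of CUL5, had 3.29 and 3.31 RPKM in the KD libraries, against 4.45 and 5.08 RPKM in control libraries, or -0.42 on the log2 scale (limma adjusted p = 0.000711). Nedd4l, which controls ion channels, changed by -0.37, and Ube4b was higher by 0.27. Of 19 substrates and binding partners tested, 13 fell and 2 rose, and the median was -0.43. Several are themselves sarcomere genes, and 4 of the list (Actn2, Myh6, Myh7 and Ttn) are also cardiomyocyte markers. Tnni3, the adult cardiac troponin I, had 1.57 and 1.78 RPKM in KD, against 14.6 and 14.5 RPKM in control, or -2.54 on the log2 scale (limma adjusted p = 2.56e-09), and Myh6 changed by -2.19.

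Filamins are substrates of Asb2. Flna had 162 and 160 RPKM in the KD libraries, against 161 and 156 RPKM in control libraries, and was not called (limma adjusted p = 0.414). Flnc, the muscle filamin, changed by -0.43 on the log2 scale (limma adjusted p = 5.15e-06). Desmin, a substrate of Asb2 in cardiac cells, had 72.0 and 73.1 RPKM in KD, against 93.9 and 96.5 RPKM in control. These are RNA levels and say nothing of protein turnover. Nbr1, a partner of MuRF2 on titin, was higher by 0.17, a call lost with median-ratio scaling (0.10, limma adjusted p = 0.0821) and without KD replicate 1 (limma adjusted p = 0.0597).

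Factors known to act on the promoters of these genes in muscle moved in both directions, with 7 of 15 tested lower and 6 higher (4 with median-ratio scaling). Myocd, the partner of serum response factor at CArG boxes, had 26.5 and 27.2 RPKM in the KD libraries, against 42.9 and 45.2 RPKM in control libraries, or -0.69 on the log2 scale (limma adjusted p = 5.55e-07). Mef2a changed by -0.65. Klf15, which with the glucocorticoid receptor acts on Trim63 and Fbxo32 in skeletal muscle, had 2.04 and 2.36 RPKM in KD, against 0.489 and 0.475 RPKM in control. This was 1.11 on the log2 scale (limma adjusted p = 3.17e-06), held down by the pseudocount of 1. With a pseudocount of 0.1 it was 1.98, and with limma voom 2.18. Foxo4 was higher by 0.74, whereas Foxo1 and Foxo3 were not called (limma adjusted p = 0.388 and 0.238).

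**Figure D4:**
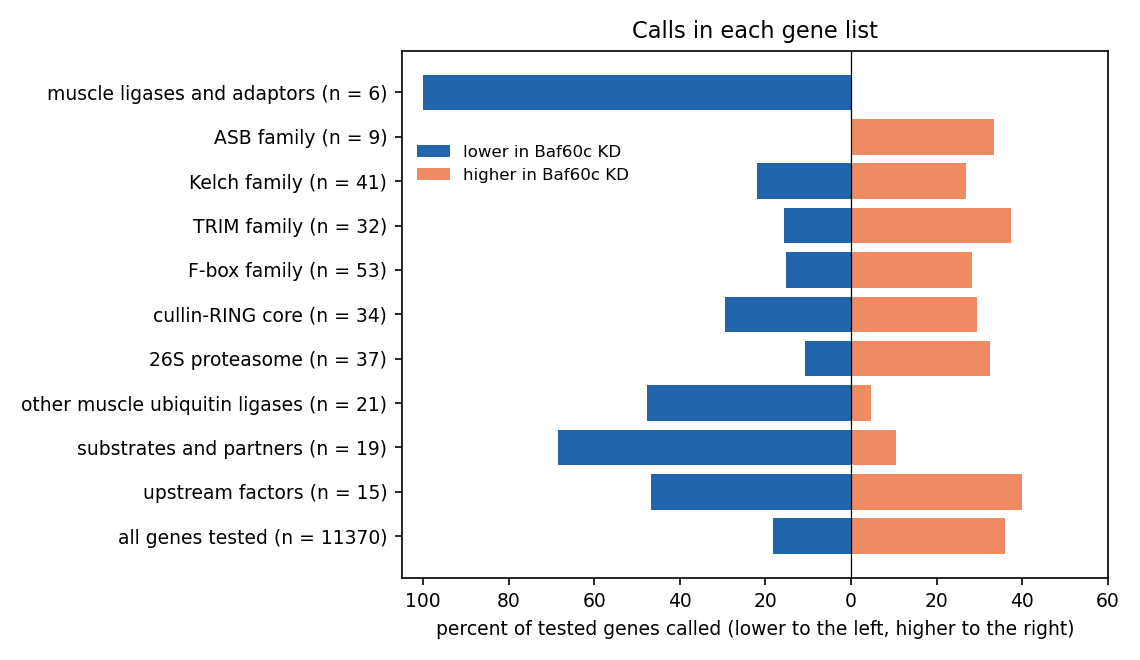
Share of tested genes called lower and higher in Baf60c KD, in percent, for the 6 muscle ligases and adaptors, each wider family or partner list, and all 11370 genes tested. All genes show 18.2% lower and 36.1% higher, and the substrates and partners show 68.4% lower and 10.5% higher.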

How the data were processed

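RNA from sorted day 5 Nkx2-5-GFP+ CPCs (2 Baf60c KD and 2 control libraries) was made into polyA libraries with a stranded kit. Per the methods and the labels, the authors mapped reads to mm9 with STAR, counted exons on both strands with HOMER, and made the deposited RPKM values, reads scaled by length and library depth, with edgeR. The table holds 35707 rows; the last 4200 are noncoding rows scaled separately and were not used, nor were the authors' columns of base means, fold changes and p-values from DESeq2.

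One transcript was kept per symbol, that with the highest mean of RPKM times length. Genes with a mean of at least 0.5 RPKM were tested with limma 3.58.1 in R 4.3.3 on log2(RPKM + 1), with trended, robust variance and Benjamini-Hochberg adjustment over 11370 genes, and called at an adjusted p under 0.05. No replicate pairing was used. An exact permutation of 2 against 2 libraries cannot go below p = 0.333, so p-values come from limma alone. RPKM times length and depth gave whole reads for 100.0% of values, within 0.001 of a read. Alternatives were a pseudocount of 0.1, no filter, median-ratio scaling, another choice of row, a replicate block, each library left out and, chosen after seeing the data, limma voom on recovered reads. The test was checked on simulated reads, drawn as independent libraries with few genes changed. In these data 54.3% of genes were called and replicates may be technical, so that check does not cover their setting.

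The 8 genes and the 9 gene lists were chosen with earlier results of these data known. From each list the text names the called genes with the 2 largest changes in each direction, and the 3 genes nearest to the gene that fell most. One gene that this rule selects is not reported here. Sums and shares are descriptions. Positions are from GENCODE on mm9, where Klhl40 and Klhl41 are listed as Kbtbd5 and Kbtbd10, and promoters from RefSeq on GRCm38.p6, with no conversion between builds.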

Additional observations from a re-analysis of the deposited data

How the results depend on the processing

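All 6 tested genes were called lower, and 0 higher, under every alternative, with the largest adjusted p, 0.0124, for Klhl31 without control replicate 2 (limma). With a library left out, 1 group has a single library, which is assumed to vary like the other group, so those p-values rest on the spread within 1 group. Log2 fold changes ranged from -1.67 to -1.53 for Asb2, -1.02 to -0.85 for Fbxo32, -0.82 to -0.58 for Trim63, -0.70 to -0.57 for Trim55, -1.30 to -0.65 for Trim54 and -1.0 to -0.34 for Klhl31. Same-numbered libraries shared only a number: their deviations correlated at r = 0.02 over 11370 genes, and with a replicate block 6 genes of the group and 6166 genes in all were called, against 6175. Median-ratio scaling moved the split of all called genes to 2926 higher and 2892 lower, against 4103 and 2072. Under it the lists gave 1 ASB gene lower (0 before), 14 F-box genes lower and 9 higher (8 and 15), 4 cullin genes higher (10), 10 proteasome genes lower and 5 higher (4 and 12), and 1 substrate higher (2). ASB genes called lower were 1 without the level filter and 0 to 1 with a library left out. Other muscle ligases called higher were 4 with voom (1 before) and 1 to 2 with a library left out, and substrates called higher 1 to 3. Of 390 values for single genes, 384 kept their call and 6 lost it, for Asb10, Dcun1d2 (without control replicate 2), Nbr1 (median-ratio scaling, without KD replicate 1) and Psmc4 (without KD replicate 2). The causes were not tested. The 390 values do not cover Cul1, Cul3, Cul5, Flna, Flnc, desmin, Foxo1 and Foxo3, or the conjugating enzymes and proteases named below. The planned edgeR and DESeq2 fits on recovered reads were not run, and limma voom took their place. Depth limits Klhl40 and Klhl41.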

Other observations

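Other steps of the ubiquitin pathway, in lists chosen after their values were seen, moved in both directions. Of 32 ubiquitin-conjugating enzymes tested, 3 fell and 12 rose, or 9.4% and 37.5%, against 18.2% and 36.1% of all genes tested. The median log2 fold change was 0.08, against 0.07 over all genes. The widest differences on the log2 scale were -0.26 for Ube2w and 0.50 for Ube2l6, an enzyme that also conjugates ISG15. Ube2l6 had 1.56 and 1.38 RPKM in KD, against 0.561 and 0.952 RPKM in control. Its KD over control ratio was 1.95, and its log2 value is held down by the pseudocount of 1 at this low level. Of 46 ubiquitin-specific proteases tested, 10 fell and 13 rose, or 21.7% and 28.3%, and the median was -0.04. The counts of both lists under median-ratio scaling were not taken. Usp28, which removes ubiquitin from Myc, had 12.0 and 11.5 RPKM in the KD libraries, against 23.0 and 23.0 RPKM in control libraries, a log2 fold change of -0.92. Usp26 was higher by 0.65, with 0.758 and 0.942 RPKM in KD, against 0.209 and 0.143 RPKM in control. These came from 71 and 118 reads in KD, against 20 and 13 reads in control. Its KD over control ratio was 4.83, and the pseudocount of 1 holds its log2 value down as well.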
